A study of Mus musculus with 12 samples.

Results

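The regions described here were promoter elements at which transcription initiation was called in leptonema/zygonema and in pachynema but not in diplonema. They were chosen by the calls themselves: overlapping or adjoining peaks of the 3 substage lists were joined, and a merged element was kept when it lay on an autosome, held at least 1 leptonema/zygonema peak and at least 1 pachynema peak, held no diplonema peak, and had its edge under 1000 bp from an annotated transcription start site (TSS). This rule gave 4331 elements of 65172 merged elements in all (6.65%), and of 25410 promoter elements on the autosomes (17.0%). Of the 16873 autosomal promoter elements with peaks in both earlier substages, they were 25.7%, and the other 12542, called in all 3 substages, are called constant elements below. The share follows from the rule and was read as a description only.

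The lists came from leChRO-seq, a run-on assay in which RNA polymerases bound to isolated chromatin add biotin-tagged nucleotides to the RNA they are making, so that nascent transcripts can be captured and sequenced. Spermatocytes of wild-type adult mice were enriched by sedimentation (STAPUT), for which the methods give a C57Bl/6J or DBA/2J background, and 12 libraries were made, 4 per substage (leptonema/zygonema, pachynema and diplonema). The STAPUT fractions were not pure, and the methods name earlier or later spermatogenic cells as possible contaminants. The 4 libraries of a substage were pooled before dREG, a caller that recognises the paired pattern of initiation at promoters and enhancers, so each substage has 1 list, and from these pooled lists neither a replicate spread nor a test between substages could be had. The lists do not give the read depth behind a peak, library depths were not used here, and an element that is absent from a list has no value there: it did not pass the caller's threshold.

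In prophase I of meiosis, homologous chromosomes pair, recombine and synapse through leptonema, zygonema and pachynema, and the synaptonemal complex is dissolved in diplonema. Spermatocytes finish premeiotic DNA replication before leptonema, and transcription rises in pachynema, when A-MYB (the product of Mybl1) drives many genes of meiosis, of the piRNA pathway and of later sperm formation. A mammalian promoter usually initiates in both directions from a nucleosome-free core, often in a CpG island, and the dREG peak marks that core.

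The marker genes of the labelled cells were called. Promoter peaks were present in all 3 lists for 5 of 6 leptonema/zygonema markers (Spo11, Dmc1, Sycp3, Meiob and Prdm9), for all 8 pachynema and diplonema markers, among them Mybl1, Piwil1 and Ldhc, and for 4 of 5 spermatid markers. The sixth leptonema/zygonema marker, Stra8, the retinoic acid target that starts meiosis, had no diplonema promoter peak and belongs to the elements described here. No promoter peak was listed in any substage for the 5 macrophage markers, for the 4 peritubular and endothelial markers, or for the Leydig markers Star, Cyp17a1 and Insl3, while Cyp11a1 had a pachynema peak alone. Among the 5 Sertoli markers, Sox9 and Gata4 were called in all 3 lists, Wt1 in pachynema and diplonema, Cldn11 in pachynema alone and Amh in none. What remaining somatic cells add to the lists was not tested.

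The sequences of 6 of the strongest such promoters are shown as examples that differ in base composition. They do not cover the full range found among the elements and were not drawn to represent all of them. Each is the 150 bases directly upstream of the TSS that the element covers, with no annotated exon in it, read 5′ to 3′ on the strand of the gene from the mm10 (GRCm38) genome of RefSeq. Capitals mark exact matches, on either strand, to the 18 short motifs that were searched and that are spelled out with the motif results. The stretches lie at chr6:40900388-40900537 on the minus strand for Prss58, at chr1:24452746-24452895 on the minus strand for Col19a1, at chr9:103111637-103111786 on the plus strand for Rab6b, at chr17:28313369-28313518 on the plus strand for Fance, at chr5:114690985-114691134 on the minus strand for Gltp and at chr8:122460734-122460883 on the minus strand for Snai3.
Prss58: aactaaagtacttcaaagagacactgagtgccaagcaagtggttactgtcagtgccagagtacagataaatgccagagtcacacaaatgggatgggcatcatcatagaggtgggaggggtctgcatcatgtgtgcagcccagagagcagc
Col19a1: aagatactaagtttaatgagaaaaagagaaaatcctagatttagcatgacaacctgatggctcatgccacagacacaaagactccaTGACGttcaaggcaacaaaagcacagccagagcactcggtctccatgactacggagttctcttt
Rab6b: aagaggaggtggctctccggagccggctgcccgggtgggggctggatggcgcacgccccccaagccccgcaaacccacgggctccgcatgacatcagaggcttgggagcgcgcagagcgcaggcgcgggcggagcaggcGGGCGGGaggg
Fance: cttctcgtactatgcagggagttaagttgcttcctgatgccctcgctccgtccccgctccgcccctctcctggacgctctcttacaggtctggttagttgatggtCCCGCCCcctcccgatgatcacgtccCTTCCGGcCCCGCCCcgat
Gltp: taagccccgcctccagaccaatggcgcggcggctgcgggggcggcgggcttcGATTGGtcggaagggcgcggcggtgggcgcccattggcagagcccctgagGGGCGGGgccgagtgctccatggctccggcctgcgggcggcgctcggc
Snai3: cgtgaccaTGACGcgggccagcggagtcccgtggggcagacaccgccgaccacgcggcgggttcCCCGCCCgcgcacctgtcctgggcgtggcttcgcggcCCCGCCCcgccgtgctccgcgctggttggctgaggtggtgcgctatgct
The stretch upstream of Prss58 held no CpG at a GC content of 49.3% and matched no motif, and that of Col19a1 held 3 CpGs at 42.7% GC with a single match, the CRE core TGACG, starting 64 bases before the TSS. The other 4 were richer in CpG: 16 in Rab6b (75.3% GC), 12 in Fance (62.7%), 20 in Gltp (77.3%) and 22 in Snai3 (76%). All 4 held the SP/KLF letters GGGCGGG. In Fance these letters started 45 and 11 bases before the TSS, with the ETS letters CCGGAAG between them at 19 bases, and in Gltp the NF-Y letters GATTGG stood 98 bases before it. Matches are a description of the letters and not of binding.

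Elements without a diplonema peak had lower scores than constant elements in both substages where they were called. The dREG score of the highest leptonema/zygonema peak ranged from 0.261 to 1.473 over the 4331 elements, with a median of 0.599 and quartiles of 0.435 and 0.818. The pachynema score ranged from 0.25 to 1.371, with a median of 0.497 and quartiles of 0.384 and 0.658. In constant elements the median scores were 1.061 and 1.047, and their diplonema peaks had a median of 0.776. Because the scores were not scaled between lists, each score was also expressed as a percentile, the share of the list's peaks with a score at or below it. The median percentile was 51.4 in the leptonema/zygonema list and 40.7 in the pachynema list, against 83.7 and 85.6 in constant elements. These values come from the lists that chose the elements and carry no test.

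**Figure D1:**
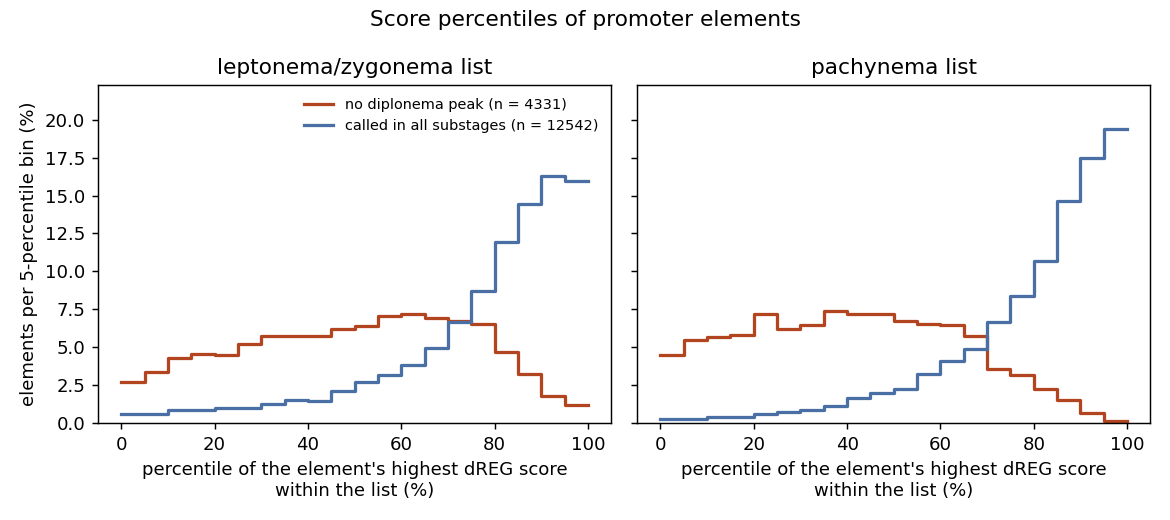
Percentile of each promoter element's highest dREG score within the leptonema/zygonema list (left) and the pachynema list (right), as the percent of elements in each bin of 5 percentiles, for the 4331 elements without a diplonema peak and the 12542 constant elements. The elements without a diplonema peak spread over most of both lists, with medians of 51.4 and 40.7 and few in the top bins, whereas the constant elements pile up at the top of both lists.

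Within the pair of earlier substages, the elements stood lower in pachynema than in leptonema/zygonema. The pachynema percentile was the lower of the 2 in 2857 of 4331 elements (66.0%, Wilson 95% interval 64.5 to 67.4) and in 5213 of 12542 constant elements (41.6%, 40.7 to 42.4). The median difference, pachynema minus leptonema/zygonema, was -8.08 percentile points, against 1.31 in constant elements. These percentiles come from the lists that chose the elements, so this contrast is a description and carries no test. The elements were also narrower, with a median width of 600 bp (150 to 2380 bp) against 1230 bp, and 1084 of them (25.03%) held more than 1 peak of either list, against 74.0% of constant elements. Both values are partly set by the rule, since a diplonema peak can widen a constant element or bridge its peaks. The highest pachynema peak alone, which no diplonema interval enters, had a mean width of 468 bp against 640 bp, a difference of -76.1 bp (-82.4 to -69.8) over the 10 groups of equal strength defined below. The intervals here and below cover counting of elements only, and neighbouring elements are not independent.

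How often an element lacked a diplonema peak followed its strength in the earlier substages. Strength was taken as the lower of an element's 2 percentiles, and the 16873 promoter elements were divided by it into 10 groups of equal size. In the weakest group 1247 of 1688 elements (73.9%, 71.7 to 75.9) had no diplonema peak. The share was 31.7% (29.5 to 34.0) in group 4 and 9.60% (8.29 to 11.1) in group 6, and in the strongest group it was 5 of 1687 elements (0.296%, 0.127 to 0.692). The share fell at every step from group 1 to group 10. Since the diplonema list is the shortest of the 3 (38603 peaks against 71107 and 68352), the earlier lists were also cut by score to its length: 1612 elements then met the rule, 12.6% of the promoter elements with peaks in both earlier substages. In these bulk lists, fewer cells that use a promoter and less transcription per cell cannot be told apart, and the part that depth plays in the diplonema calls was not tested.

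Distal elements in the same strength groups were more often without a diplonema peak than promoter elements. Element width, on which overlap with a diplonema peak depends, was not matched in this comparison. Of 16750 autosomal distal elements with peaks in both earlier substages, 9445 (56.4%, 55.6 to 57.1) had none in diplonema. At the strength limits of the promoter groups, the distal share was 84.9% in group 1, 60.02% in group 4, 33.2% in group 6 and 2.59% in group 10, above the promoter share in all 10 groups. Weighted over the groups (Mantel-Haenszel), the promoter share was lower by 17.1 percentage points (difference -17.1, Sato 95% interval -18.0 to -16.1), and it was lower on 19 of 19 autosomes. Between autosomes the promoter share without a diplonema peak ran from 20.99% on chromosome 16 to 29.0% on chromosome 14.

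**Figure D2:**
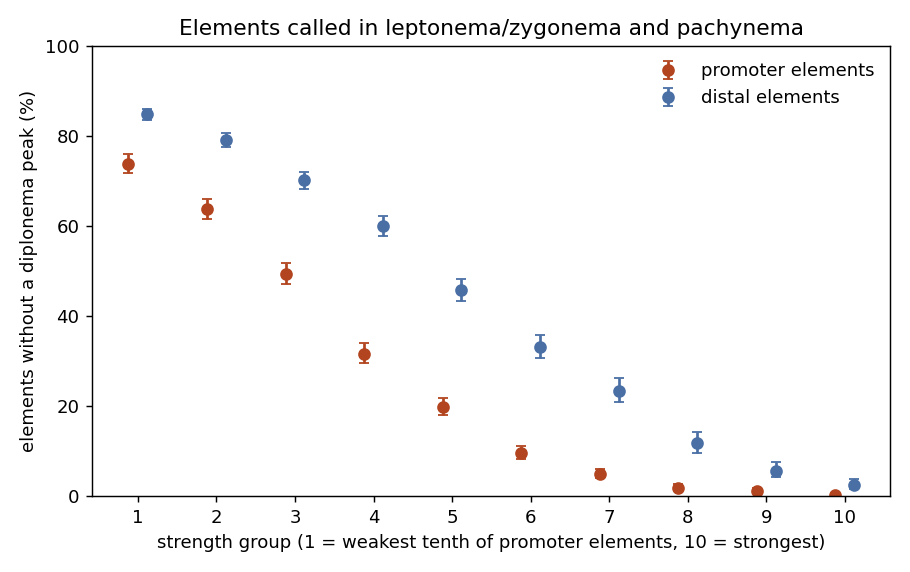
Percent of elements without a diplonema peak (vertical axis) in 10 groups by strength in the earlier substages (horizontal axis), for promoter and distal elements; bars are Wilson 95% intervals for counting error. The promoter share fell from 73.9% to 0.296%, and the distal share lay above it in every group, from 84.9% to 2.59%.

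Many of the elements had a diplonema peak close by, although none overlapped or touched. The element nearest to one, at chr1:55406011-55406340 with scores of 0.493 and 0.543 in leptonema/zygonema and pachynema, lay 10 bp away. A diplonema peak lay within 20 bp of 82 elements (1.89%), within 100 bp of 410 (9.47%), within 500 bp of 1077 (24.9%) and within 1000 bp of 1303 (30.1%). The remaining 3028 (69.9%, 68.5 to 71.3) had none within 1000 bp, and the median distance over all elements was 10480 bp. Of these 3028, 2168 (71.6%) covered a TSS, against 356 of 1303 (27.3%) with a diplonema peak nearby. Their median scores were 0.66 and 0.524 against 0.491 and 0.445, and their mean GC content was 57.4% against 52.4%. The elements far from a diplonema peak thus covered start sites more often than those near one.

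Against the annotation, 2524 elements (58.3%, 56.8 to 59.7) covered a TSS, 653 (15.1%) lay upstream of the nearest one and 1154 (26.6%) downstream. Constant elements covered a TSS in 89.7% of cases. Over the 10 strength groups the difference in coverage was -13.1 percentage points (-15.0 to -11.2), and it was negative on 19 of 19 autosomes. Coverage by the merged element depends on its width, to which diplonema peaks add in constant elements. When the highest pachynema peak alone was required to cover a TSS, 2270 elements (52.4%) did so against 80.2% of constant elements, and the difference was smaller, at -5.89 points (-7.96 to -3.82, negative on 17 of 19 autosomes). At the distance limit, the outermost kept element, 998 bp from a TSS at chr8:45063451-45064030, scored 0.699 and 0.535, and the next 2 lay at 996 bp with scores of 0.474 and 0.372 and of 1.006 and 0.604. Just outside, 2 elements at 1000 bp scored 0.543 and 0.312 and 0.7 and 0.546, and one at 1001 bp scored 1.056 and 0.789. The scores on either side of the limit overlapped.

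**Figure D3:**
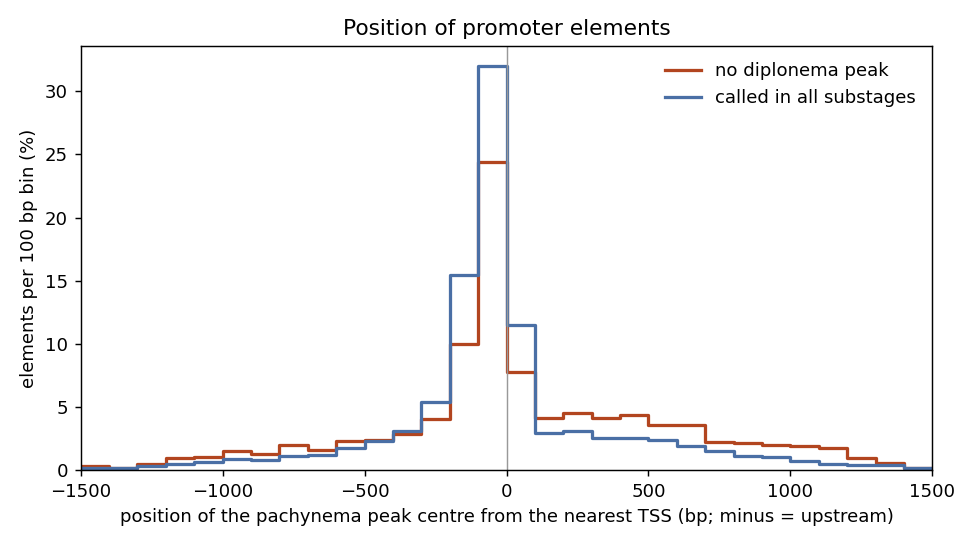
Position of the pachynema peak centre from the nearest annotated TSS in bins of 100 bp (horizontal axis, minus is upstream), as percent of the 4331 elements without a diplonema peak and of the 12542 constant elements. Both groups were highest in the 100 bp upstream of the TSS, with 24.4% of the elements without a diplonema peak and 32.0% of the constant elements, and the former had the higher shares from 1300 to 400 bp upstream and from 100 to 1400 bp downstream, as at 800 to 700 bp upstream (1.99% against 1.14%) and 400 to 500 bp downstream (4.39% against 2.54%).

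Most elements belonged to protein-coding genes. A protein-coding TSS lay under 1000 bp from 3185 of them (73.5%), long non-coding or unclassified (TEC) genes alone from 803 (18.5%), pseudogenes alone from 271 (6.26%) and short RNA or other genes alone from 72 (1.66%). In constant elements these shares were 84.3%, 12.5%, 2.62% and 0.542%. Over the strength groups the protein-coding share was lower (difference -8.504 points, -10.3 to -6.67), and negative on 19 of 19 autosomes, and the pseudogene share was higher by 1.81 points (0.856 to 2.76), on 15 of 19. Protein-coding TSSs on both strands, the arrangement of a divergent gene pair, were near 160 elements (3.69%) and near 9.70% of constant elements, a difference of -3.05 points (-3.97 to -2.13) over the strength groups.

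The elements were poorer in CpG than constant elements of the same strength. In the 200 bp around the centre of the highest pachynema peak, the mean GC content was 55.9% against 60.2% in constant elements, and the mean ratio of observed to expected CpG was 0.481 against 0.669. Over the strength groups the differences were -2.01 points of GC (-2.51 to -1.51, negative on 18 of 19 autosomes) and -0.107 in the ratio (-0.121 to -0.0927, negative on 19 of 19). Among elements covering a TSS they were -1.05 (-1.65 to -0.448) and -0.0884 (-0.105 to -0.0713). With only elements that have no diplonema peak within 1000 bp they were -0.867 (-1.41 to -0.327) and -0.0918 (-0.107 to -0.0766). In the 5 strongest groups they were larger, at -2.23 and -0.172. A window with at least 50% GC and a ratio of at least 0.6, the composition of a CpG island, was held by 1465 elements (33.8%) and by 60.1% of constant elements, a difference of -11.8 points (-13.9 to -9.73). The lower ratio was present in all 10 groups: it was 0.456 against 0.522 in the weakest and 0.560 against 0.695 in group 7, and the strongest group, at 0.276 against 0.698, rests on 5 elements. Windows in which at least 50% of bases were soft-masked as repeats made up 6.003% of the elements and 4.83% of all promoter elements. In constant elements they made up 2.34%, a difference of 1.69 points (0.762 to 2.61) at equal strength.

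Short motifs of factors known to act at promoters were searched as exact letters on both strands of the same windows, where N stands for any base. Of the 18 motifs, 8 were less frequent in the elements than in constant elements of the same strength, 1 was more frequent, and for 9 the 95% interval held 0. The letters of MYB, the family of the pachytene regulator A-MYB, were among the 8. GGCNGTT was found in 7.78% of the elements, 10.7% of constant elements and 9.53% of all promoter elements, a difference of -2.92 points at equal strength (-4.14 to -1.69, negative on 16 of 19 autosomes), and the overlapping core CNGTTG in 24.7%, 28.6% and 27.3% (difference -4.62, -6.52 to -2.72). The ETS letters CCGGAAG, common at promoters of housekeeping genes, were in 4.02%, 12.04% and 7.77% (-3.40, -4.42 to -2.38). The NRF1 letters GCATGCGC, named for a factor of genes for mitochondrial function, were in 1.29%, 3.97% and 2.53% (difference -1.31). These 4 motifs stayed lower, with intervals below 0, when elements were compared at equal CpG ratio as well as equal strength (5 strength groups crossed with 10 CpG ratio groups), at -3.38 (-4.61 to -2.16), -6.16, -2.32 and -0.848 points in the same order.

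The other motifs with lower shares lost their intervals below 0 under some alternatives. The SP/KLF letters GGGCGGG were in 20.9% of the elements, 32.9% of constant elements and 24.0% of all promoter elements (difference -3.78 at equal strength), but at equal CpG ratio the difference was 1.40 points (-0.273 to 3.08). It was -0.507 (-2.88 to 1.86) among elements covering a TSS and -0.555 (-2.60 to 1.49) when only elements with no diplonema peak within 1000 bp were set against constant elements. The CRE core TGACG was in 15.4%, 25.3% and 19.1% (difference -3.30), and at equal CpG ratio the difference was -0.801 (-2.41 to 0.805). NF-Y GATTGG (9.54% of the elements and 14.7% of constant elements) and the E-box CACGTG (4.96% and 7.48%) also lost their intervals below 0 in this comparison. With the 5 strength groups alone, these 4 motifs kept intervals below 0, and with elements that have no diplonema peak within 1000 bp NF-Y (-0.603) and the E-box (-1.03) did not. The full CREB/CREM site TGACGTCA, which contains the core, was in 1.43% and 3.24%, with a difference of -0.112 (-0.670 to 0.446). The motif with the higher share was ACATTGT of DMRT1, a regulator of spermatogonia, in 2.12% of the elements, 1.43% of constant elements and 1.81% of all promoter elements (difference 0.841, 0.257 to 1.43), and at equal CpG ratio it was 0.393 (-0.187 to 0.974). For RFX GTTGCCA, YY1 AAGATGG, E2F GCGGGAA, ZBTB33 TCTCGCGA, ZFP143 ACTACAATT, CTCF CAGGGGGC, AP-1 TGAGTCA and the TATA box TATAAA the interval at equal strength held 0, with shares in the elements of 4.43%, 3.21%, 3.51%, 0.300%, 0.208%, 2.68%, 3.83% and 6.44%. Absence of a match says only that these letters are not in the window.

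**Figure D4:**
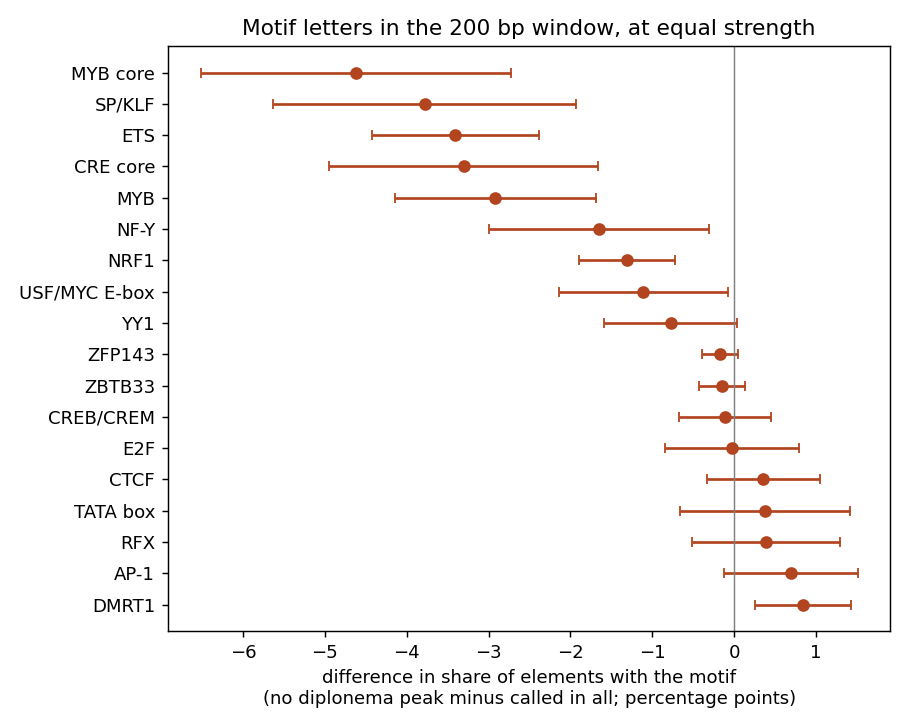
Difference in the share of elements with each motif in the 200 bp window around the peak centre. Values are elements without a diplonema peak minus constant elements, in percentage points weighted over 10 strength groups. Bars are 95% intervals. The intervals of 8 motifs lie below 0: MYB (-2.92), its core (-4.62), SP/KLF (-3.78), ETS (-3.40), the CRE core (-3.30), NF-Y (-1.65), NRF1 (-1.31) and the E-box (-1.11). DMRT1 (0.841) is the only motif whose interval lies above 0.

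Many genes near an element still had a diplonema peak at one of their start sites. The elements lay under 1000 bp from a TSS of 2982 protein-coding genes, and 1480 of these (49.6%) had no diplonema peak near any of their TSSs. Over all 20807 autosomal protein-coding genes, 11989 had promoter peaks in both earlier substages, and 1550 of these (12.9%) had none in diplonema. The share was 7.28% with earlier peaks scoring at least 0.5 and 6.76% with lists of equal length. The median strength of these 1550 genes was 40.3, against 84.0 for the genes with a diplonema peak, and their median length was 17.9 kb against 27.1 kb. By 10 groups of gene strength the share without a diplonema peak was 59.0% in the weakest group, 4.92% in group 5 and 0.0835% in the strongest.

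The strongest of these genes were named by a fixed rule: the 25 protein-coding genes with the strongest element over one of their TSSs and no diplonema peak near any of them. They share 22 elements, since 3 elements each lie over the starts of 2 genes. Leptonema/zygonema scores of the 22 ran from 1.092 to 1.411 and pachynema scores from 1.043 to 1.222. The nearest diplonema peak was between 4600 and 271290 bp away, with a median of 27510 bp and over 10 kb for 19 elements, and 16 of the 22 had the composition of a CpG island. Strength and the lack of a diplonema peak nearby follow from the rule that chose these genes.

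Prss58, a gene of the trypsin-like serine protease family, had the strongest element of these 22, at chr6:40900131-40900770 over its annotated start, with scores of 1.256 in leptonema/zygonema and 1.222 in pachynema, percentiles 94.9 and 95.2. Its window held no CpG, as in the upstream sequence shown above. Col19a1, which encodes a collagen chain, followed with 1.376 and 1.209 at chr1:24452491-24453280, a start site inside the longest form of the gene, 113700 bp from the nearest diplonema peak. They were among the 6 of the 22 elements that lacked the composition of a CpG island.

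Fance, a subunit of the Fanconi anaemia core complex that repairs DNA crosslinks, scored 1.264 and 1.165 at chr17:28313271-28314030. Tex15, needed for repair of meiotic double-strand breaks, scored 1.18 and 1.043 at chr8:33516451-33517740, with the nearest diplonema peak 7290 bp away. Nme1, a nucleoside diphosphate kinase, scored 1.372 and 1.167 at an element shared with the overlapping gene Gm20390. All 3 elements stood lower in the pachynema list than in the leptonema/zygonema list, for Tex15 at percentile 85.4 against 90.6, as did 14 of the 22.

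The Golgi GTPase gene Rab6b scored 1.264 and 1.19, the glycolipid transfer protein gene Gltp 1.206 in both lists, and Sft2d2, of vesicle transport, 1.187 and 1.135. The ligand gene Wnt9a scored 1.361 and 1.118, the netrin receptor gene Unc5d 1.193 and 1.128, and Snai3, a repressor of the Snail family, 1.339 and 1.126. The cell adhesion gene Cadm4 scored 1.247 and 1.062. Scores of the lower-ranked genes were similar: Elavl2, an RNA-binding protein of neurons and germ cells, had 1.165 and 1.079, Katnbl1, a katanin-like microtubule regulator, 1.111 and 1.098, and the zinc finger gene Zfp7 1.411 and 1.047 at an element shared with Gm49527. The remaining genes of the 25 were Ogfrl1, 5730507C01Rik, Cacybp, B4galnt3 with D330020A13Rik, Arhgef26, Otulinl and Pdzd2, whose leptonema/zygonema scores ran from 1.092 in Pdzd2 to 1.345 in Cacybp.

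Genes of DNA replication and of the entry into meiosis were among those without a diplonema promoter peak. Of 43 genes of replication licensing and premeiotic S phase with promoter peaks in both earlier substages, 7 (16.3%, 8.12 to 30.0) had none in diplonema, where all genes at the same strength gave 6.82%. They were Mcm6, a subunit of the replicative helicase (1.09 and 0.93 in leptonema/zygonema and pachynema), Gins4 of the same helicase complex (1.105 and 0.712), Rrm1, the large subunit of ribonucleotide reductase (1.005 and 0.675), the S phase activator E2f2 (0.84 and 0.658), the licensing factor Cdt1 (0.964 and 0.544), Prim1 and Pold1. On the percentile scale the 5 whose values are given stood lower in the pachynema list, and the nearest diplonema peak to them was 14530 bp away or farther. With earlier lists cut to the length of the diplonema list, 6 of 41 (14.6%) had none, where all genes then gave 6.76%, not matched for strength.

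Of 27 genes of spermatogonia and meiotic entry, 9 (33.3%, 18.6 to 52.2) had no diplonema promoter peak, where all genes at the same strength gave 17.2%. The strongest were Sall4 (1.058 and 0.86), a zinc finger factor of undifferentiated spermatogonia, Pou5f1 (0.859 and 0.79), the pluripotency factor OCT4, and Crabp1 (1.102 and 0.721), which binds retinoic acid. Stra8 had an element with 0.599 and 0.58 over an annotated start inside the gene at chr6:34920631-34921080, and a stronger leptonema/zygonema peak of 0.755 near the same gene. Sohlh1 (0.917 and 0.522) and Sohlh2 encode partner factors of spermatogonial differentiation, and Ccnd2, Prss50 and Lin28a completed the 9. With lists of equal length the count was lower, at 5 of 22 (22.7%: Crabp1, Pou5f1, Sall4, Sohlh1 and Stra8), where all genes gave 6.76% again not matched for strength.

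Few genes of meiosis proper lacked a diplonema call, as was the case for all genes of their strength. None of 15 synaptonemal complex and axis genes (Wilson upper bound 20.4%) and none of 19 piRNA pathway genes (16.8%) lacked a diplonema promoter peak. Of 40 genes of double-strand break formation and recombination, 2 (5%) did: Xrcc3, which acts in homologous recombination (0.824 and 0.522), and Psmc3ip, which encodes HOP2, the partner of MND1 in strand exchange (1.008 and 0.305). Tex15, named above, is not in this list. Of 49 spermatid, acrosome and flagellum genes, 1 (2.04%) did, Tekt2, which encodes a tektin of the axoneme (1.245 and 0.775), and its element had a diplonema peak 2960 bp away. At the same strength all genes gave 2.02%, 4.02%, 6.20% and 6.24% for these 4 lists, within the 95% intervals of their shares. In the same order, the counts with lists of equal length were 0 of 15, 0 of 19, 1 of 39 and 1 of 48. A set of 16 genes taken from those the study names, from Atr and Brdt to Ybx1, all had a diplonema promoter peak, and none had an element of this kind.

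Genes of mitosis, of Pol II control and of the early response had few members without a diplonema call. Of 32 genes of mitotic division and the spindle checkpoint, 3 (9.38%) had no diplonema promoter peak: Cenpa, the centromeric histone (0.978 and 0.962), the phosphatase gene Cdc25b (0.924 and 0.685) and the cyclin gene Ccna2 (0.789 and 0.435). Of 29 genes of Pol II pausing and BET proteins the single one was Mllt3 (0.962 and 0.641), which encodes AF9 of the super elongation complex. Of 25 immediate early and stress response genes, 2 (8%) were without: Fosl1 (0.731 and 0.84), an AP-1 subunit, and Egr2, whose element (0.506 and 0.404) lay 318 bp from its TSS. At the same strength all genes gave 6.84%, 5.21% and 15.1% for these 3 lists, within the 95% intervals of their shares. In the same order, the counts with lists of equal length were 2 of 31, 1 of 28 and 1 of 23. Fosl1 stood higher in the pachynema list on the percentile scale, unlike Egr2.

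For housekeeping families the rate of all genes at the same strength lay within the 95% interval of each share. Of 73 cytoplasmic ribosomal protein genes, 5 (6.85%) had no diplonema promoter peak (among them Rpl28 and Rpl41), of 68 mitochondrial ribosomal protein genes 7 (10.3%), of 43 proteasome genes 1 (2.33%, Psmd8) and of 31 complex I genes 2 (6.45%, Ndufb10 and Ndufb2). At the same strength all genes gave 6.89%, 7.57%, 7.14% and 9.28% for these lists. Rpl28 scored 0.989 and 0.662, and Rpl41 had a diplonema peak 860 bp from its element, although none lay under 1000 bp from its TSSs. Of 293 Zfp genes, 41 (14.0%) lacked a diplonema promoter peak, where all genes at the same strength gave 13.9%, and of 198 solute carriers 35 (17.7%, against 16.8%). Of 45 clustered histone genes 8 (17.8%) did, against 22.9%. One was Hist1h1t, the linker histone of spermatocytes, with 0.559 and 0.701 at the element over its start. Lists of equal length, where all genes gave 6.76%, not matched for strength, lowered most of these counts. They were 3 of 71 cytoplasmic and 3 of 64 mitochondrial ribosomal protein genes, 0 of 41 proteasome genes and 2 of 31 complex I genes. For Zfp genes, solute carriers and clustered histone genes they were 23 of 257, 15 of 156 and 3 of 36. Histone, receptor and protocadherin genes are near-identical copies in places, and how their reads were divided between copies could change these calls.

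Families of development and of tissue function were weaker calls. Of 67 developmental transcription factor genes 23 (34.3%) had no diplonema promoter peak, of 8 Hox genes 4 (50%), of 11 Wnt, Fgf and Bmp ligands 6 (54.5%), of 15 collagens 8 (53.3%), of 14 cadherins and protocadherins 8 (57.1%), of 64 ion channels and neurotransmitter receptors 25 (39.1%) and of 33 olfactory and vomeronasal receptors 15 (45.5%). At the same strength all genes gave 29.1%, 26.2%, 30.2%, 28.8%, 44.2%, 25.5% and 22.0%, and this rate lay within the 95% interval of the list's share for the developmental factors (24.1 to 46.3), the Hox genes (21.5 to 78.5), the ligands (28.0 to 78.7) and the cadherins (32.6 to 78.6). With lists of equal length, where all genes gave 6.76%, not matched for strength, the counts in the same order were 12 of 41, 4 of 7, 3 of 6, 4 of 10, 1 of 6, 13 of 46 and 9 of 24. The median strength of these 7 lists lay between 23.3 and 69.0, against 81.5 for all genes with peaks in both earlier substages. Of the somatic testis cell list, where promoter peaks stood near 10 of 33 genes in leptonema/zygonema, near 12 in pachynema and near 6 in diplonema, 3 of 7 had none in diplonema: Col1a2 (0.598 and 0.558), Kdr (0.374 and 0.564) and Inha (0.36 and 0.415). The 3 of 7 are 42.9%, where all genes at the same strength gave 38.7%, and with lists of equal length they were 1 of 3. The lists share genes, among them Pou5f1 and Col1a2, and the shares are descriptions without a test.

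**Figure D5:**
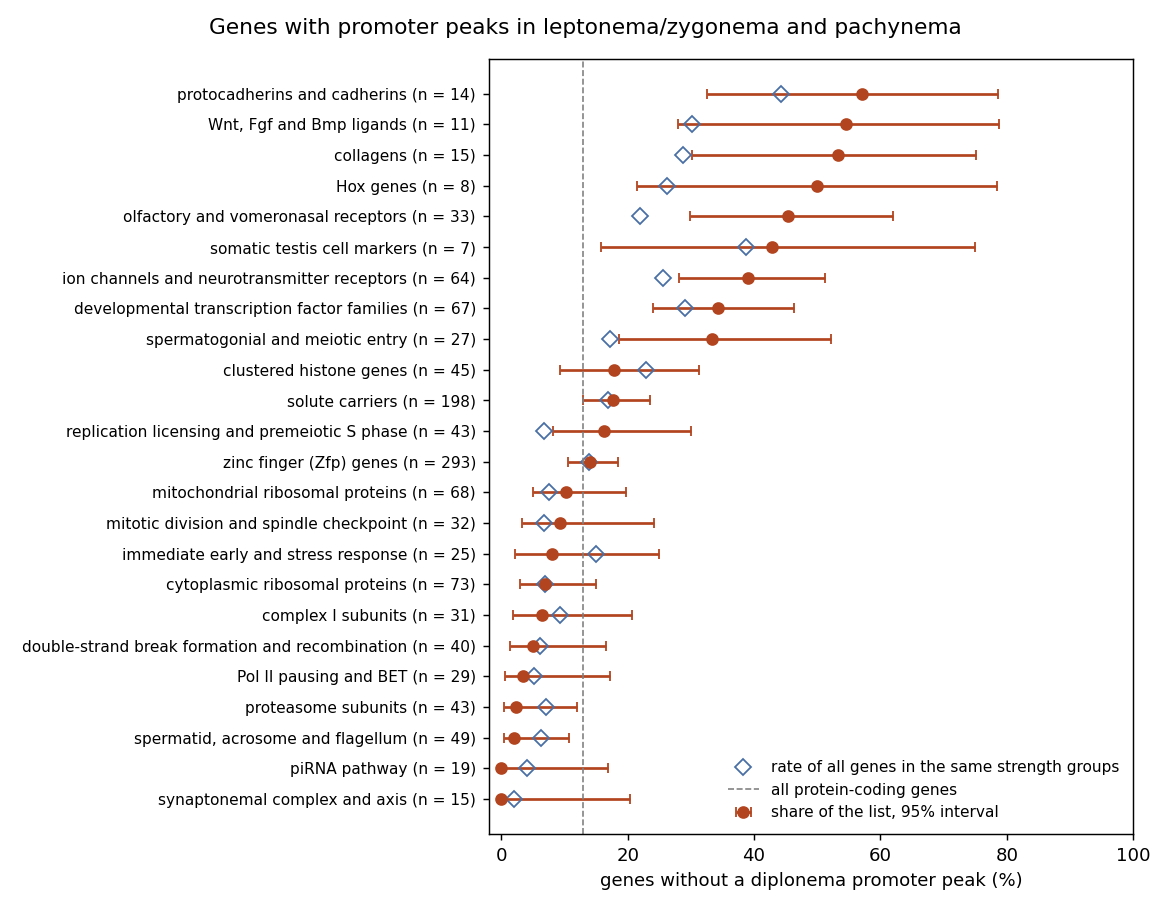
Percent of genes without a diplonema promoter peak among genes with promoter peaks in both earlier substages, for 24 lists (points, with Wilson 95% intervals), the rate of all genes in the same strength groups (open diamonds) and the rate of all protein-coding genes, 12.9% (dashed line). Synaptonemal complex and piRNA genes stand at 0%, replication genes at 16.3%, spermatogonial genes at 33.3% and cadherins at 57.1%.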

How the data were processed

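The 12 leChRO-seq libraries, 4 per substage, measure nascent transcription. Per the labels and methods, PCR duplicates were removed (PRINSEQ lite), and reads were trimmed (cutadapt), aligned with BWA to mm10 and pooled by substage, and the authors called peaks with dREG (version not given in the sources used here). The labels give single-end and the methods paired-end reads. The deposited lists hold, per peak, a dREG score, a p-value and a peak centre. Read counts and library depths were not used here, and the lists do not give the depth behind a peak.

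Peaks were merged and set against GENCODE M21 TSSs, and sequences were read from RefSeq GRCm38. Shares have Wilson intervals. Differences from constant elements were weighted over 10 groups of strength (Mantel-Haenszel with Sato intervals, or means), and the estimators were tested on simulated data. Motifs and gene lists were compared as shares. The members, motifs and lists were chosen with earlier results of these data known. Genes named are markers of cell types, the 25 strongest, up to 5 per symbol list and 16 of those the study names. Others were chosen after their values were seen (ribosomal, proteasome, complex I, Hist1h1t and the genes below the first 5). Some genes of the lists are not reported here by name. The pattern for developmental factors was corrected after it took unrelated genes. Alternatives for counts and shares covered merging, score and p-value limits, list length and TSS distance. Those for base composition and motifs covered window, strata and subsets of elements. Python 3.11.15, numpy 2.4.6 and pandas 2.3.3 were used.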

Additional observations from a re-analysis of the deposited data

Results flagged for a closer look

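Only autosomal elements were used above, so the sex chromosomes were looked at for the same pattern. On the X chromosome, 211 of 679 promoter elements with leptonema/zygonema and pachynema peaks had no diplonema peak (31.1%, Wilson 95% interval 27.7 to 34.7). On the Y chromosome the number was 4 of 12 (33.3%). Both were marked for a closer look because elements of the same kind appeared in data outside the comparisons. The autosomal share was 25.7%, with single autosomes between 20.99% and 29.0%, and the difference was not tested.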

How the results depend on the processing

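The counts and shares moved with how peaks were merged and filtered. The differences in base composition were rerun only with other windows, strength groups and subsets of elements. There they kept their sign and intervals on one side of 0. They were not rerun with other merging, score, p-value, list length or TSS distance settings. With the earlier lists cut to the length of the diplonema list, 1612 elements met the rule, 12.6% of promoter elements with peaks in both earlier substages, 79.0% of them with no diplonema peak within 1000 bp and 70.4% covering a TSS. Merging peaks up to 100 bp apart gave 21.4%, 87.7% and 71.9% for these 3 shares, a score of at least 0.5 gave 30.2%, 82.8% and 70.3%, an edge under 500 bp gave 23.0%, 75.2% and 69.8%, and requiring no diplonema peak within 500 bp gave 19.3%, 93.1% and 69.1%. Coverage of a TSS by the highest pachynema peak alone was 52.4%. A p-value of at most 0.01 moved the last 2 to 73.8% and 62.3%, and protein-coding TSSs alone moved the first 2 to 23.1% and 67.1%. Coverage by the pachynema peak alone changes only the measure and refers to the same elements. Of the other alternatives, the score and p-value limits and the cut lists leave out peaks. The rest change the rule of membership, so by construction the shares under all of these refer to other elements. Genes without a diplonema promoter peak fell from 12.9% to 7.28% with earlier peaks scoring at least 0.5 and to 6.76% with lists of equal length. The counts per gene list with lists of equal length, the 5 strength groups, the 5 strongest groups, the CpG groups and the pachynema peak as the measure of coverage were chosen after seeing the data. At equal CpG ratio the SP/KLF difference turned to 1.40 points, and the cause was not tested. For motifs too, the 9 alternatives changed only windows, groups and subsets of elements. MYB, ETS and NRF1 kept intervals below 0 under all 9, and the DMRT1 difference was above 0 in all 9, with its interval above 0 in 4. No paired analysis was possible because the libraries of a substage were pooled into 1 list, which also means that leaving out a replicate could not be tried. An element that was not called has no value, so a decrease in its signal could not be measured.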
